A study of Rattus norvegicus with 2 samples.

Results

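Heat shock proteins and chaperones were compared between rat neural stem cells (NSCs) grown with ectodermal mesenchymal stem cells (EMSCs) and NSCs grown alone. Members were found by gene symbol: the Hspa, Hspb, Hspd, Hspe, Hsph, Hsp90, Dnaja, Dnajb, Dnajc, Bag and Cct families, with Tcp1, Hsf1, Hsf2, Pdia3, Pdia4, Pdia6, Calr and Canx. Of 22093 genes that had a symbol of their own on the array, 131 matched. Of these 38 carry a pseudogene symbol and are described apart, which leaves 93 chaperone genes. By the known location of their products, 18 were assigned to the endoplasmic reticulum (ER) and 10 to mitochondria, and 9 act on other membranes or were not assigned. The remaining 56 were counted as cytosol and nucleus by default. They include dim relatives such as Hspd1l2, whose location was not looked up.

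The co-cultured NSCs came from whole brains of SD rat embryos at day 13.5, had grown as neurospheres for 10 days, and were then kept for 14 days on a layer of EMSCs. The EMSCs came from transgenic rats carrying green fluorescent protein, the medium held serum, and the NSCs were separated by fluorescence-activated sorting before RNA was taken. The mono-cultured NSCs had the same origin and were kept for 14 days alone. Whether they were sorted too is not given in the sources used here. Each group is 1 sample on 1 whole-transcript array, so no difference has a replicate check, no test between the groups is possible, and no p-value is given. Levels are log2 values from robust multi-array averaging (RMA), and differences are given as co-cultured minus mono-cultured, so that 1 is a 2-fold difference. In bulk RNA of this kind, fewer cells of a type and less RNA per cell cannot be told apart.

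The labelled cell type was checked against marker genes. Of 8 neural stem cell markers on the array, 4 exceeded 6.64 on each array, the 95th percentile of the negative control probes, and Sox2 read 8.69 in co-cultured NSCs, against 8.83 in mono-cultured NSCs. Pax6 was at 4.01 in co-cultured and 4.53 in mono-cultured NSCs, in the range of the negative controls. Other neural stem cell markers lay on both sides of 0: Fabp7 read 7.81 in co-cultured and 9.76 in mono-cultured NSCs, a difference of -1.95, Msi1 5.44 in co-cultured and 6.44 in mono-cultured NSCs, just inside 2-fold, and Nes 8.25 in co-cultured and 7.45 in mono-cultured NSCs. Of the 6 kept, 1 was past 2-fold. The 12 mesenchymal markers had a mean level of 9.13 in co-cultured NSCs, against 6.32 in mono-cultured NSCs, and 10 of them exceeded 6.64 on the co-cultured array, against 4 on the mono-cultured array. In co-culture 10 of these markers were higher by more than 2-fold, while Eng and Nt5e were lower, by -2.02 and -2.00. The 12 microglia and macrophage markers had a mean level of 4.83 in co-cultured and 8.76 in mono-cultured NSCs, and 1 of them exceeded 6.64 on the co-cultured array, against 10 on the mono-cultured array. The 9 immediate early genes, which can be induced by cell dissociation, were all higher in co-culture, by a median of 1.28. In co-culture, 4 of 6 kept astrocyte markers were lower by more than 2-fold and 1 was higher, 2 of 5 kept neuron markers were lower by more than 2-fold, and 0 of 6 oligodendrocyte markers were past 2-fold. The part of these cells and of sorting in the chaperone differences below was not tested.

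Chaperones help other proteins reach or keep their folded form. Proteins of the Hsp70 family bind exposed stretches of unfolded chains under the control of J-domain partners (Dnaja, Dnajb and Dnajc) and of nucleotide exchange factors (Hsp110 and Bag proteins), Hsp90 acts later on kinases and receptors, and ring-shaped chaperonins fold proteins in a closed chamber. Each compartment has its own set: heat shock factor 1 raises the cytosolic set when proteins unfold, the ER set follows the unfolded protein response, and mitochondria import and fold their proteins with Hsp70 and Hsp60 forms of bacterial origin.

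Chaperone genes had nearly equal levels in both cultures. Of the 93 genes, 68 reached 4.97, the median of all gene levels, on at least 1 array and are called kept. Of the 68, 1 lay 2-fold or more above its mono-culture level and 2 lay 2-fold or more below it, which is 4.41%, against 10.6% of the 11849 kept genes of the array (5.04% higher and 5.54% lower). At 1.5-fold the shares were 8.82% of kept chaperone genes and 20.6% of all kept genes. Over all 93 members, with no filter, 3.23% were past 2-fold, against 6.16% of all named genes. Where both arrays had to reach 4.97, 1 of 67 chaperone genes was higher and 2 were lower, against 6.01% of 10245 genes. The contrast is smaller under that filter, which leaves out genes dim on 1 array. The differences of the kept chaperone genes had a median of -0.043 and an SD of 0.37 across genes, and those of all kept genes a median of -0.061 and an SD of 0.79. Levels in co-culture were the lower ones for 40 of 68 chaperone genes (58.8%) and for 55.8% of all kept genes.

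The same counts were made among genes whose mean over both arrays reached 6.64. Of these 4156 genes, 9.05% were past 2-fold, with an SD of 0.76. Of the 38 chaperone genes among them 0 were, and their differences ran from -0.59 to 0.57 with an SD of 0.24. Dnajb4, Hspa4l and Hspb1 are not among the 38, because their mean levels lie below 6.64. The differences of the positive control probe sets had a central 95% range from -1.15 to 0.61, and 66 of the 68 kept chaperone genes (97.1%) lay inside it, as did 86.6% of all kept genes.

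**Figure D1:**
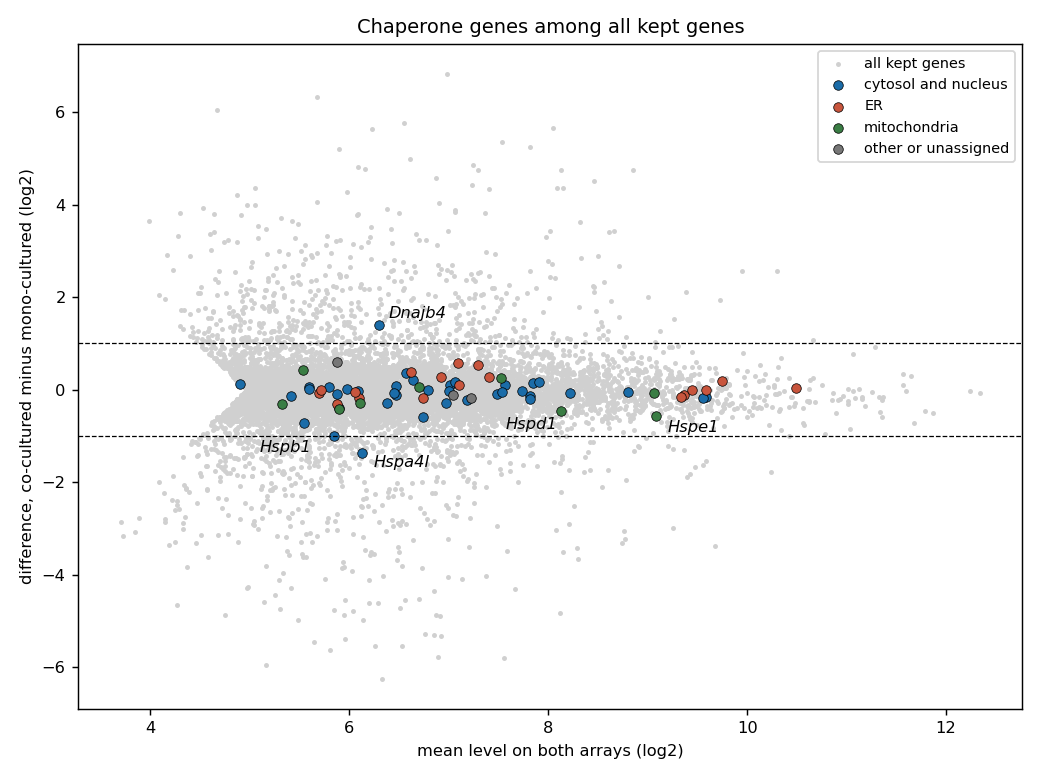
Difference between the cultures (co-cultured minus mono-cultured, log2) against the mean level of both arrays (log2) for all 11849 kept genes in grey and the 68 kept chaperone genes in colour by compartment. Dashed lines mark 2-fold, and only Dnajb4, Hspa4l and Hspb1 among the chaperone genes lie on or beyond them.

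The transcriptional regulators of the heat shock response were dim on both arrays. Hsf1, the main stress-activated heat shock factor, read 6.07 in co-cultured NSCs, against 6.11 in mono-cultured NSCs, and Hsf2, a second heat shock factor active in development, had 6.42 in co-cultured and 6.49 in mono-cultured NSCs. All 4 values lie below 6.64, in the range of the negative controls, so these near-equal readings do not show that the regulators were level. Activation of Hsf1 works on the protein and need not change its RNA. Of the genes it is known to induce, 4 were therefore read here. Hspa1a, the classical inducible Hsp70, had 5.18 in co-cultured NSCs, against 5.91 in mono-cultured NSCs, a difference of -0.73. Its 2 probe sets differed by -0.62 and -0.84, both in the range of the negative controls, and the near-identical gene Hspa1b may share this signal. Dnajb1, the inducible J-domain partner of Hsp70, had 7.14 in co-cultured and 6.98 in mono-cultured NSCs. Hsph1, the inducible Hsp110, had 6.79 in both cultures, an exact tie. Bag3, a stress-induced exchange factor that links Hsp70 to autophagy, had 6.76 in co-cultured NSCs, against 6.39 in mono-cultured NSCs, a difference of 0.37. These 4 inducible genes thus lay on both sides of 0, and none of the 4 reached 2-fold. They are not the whole heat shock set. The small heat shock protein gene Hspb1 and the inducible Hsp90aa1, described below, differed by -1.01 and -0.16, and Hspb1 was past 2-fold.

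The constitutive cytosolic chaperones were bright and close to equal. Hspa8, the constitutive Hsp70, read 8.18 in co-cultured and 8.26 in mono-cultured NSCs as the mean of a dim and a bright probe set, and the bright one read 11.64 in co-cultured NSCs, against 11.80 in mono-cultured NSCs. Hsp90aa1, the inducible cytosolic Hsp90, had 9.51 in co-cultured and 9.66 in mono-cultured NSCs. Hsp90ab1, its constitutive counterpart, had 9.47 in co-cultured NSCs, against 9.64 in mono-cultured NSCs. All 3 lay within 0.2 of equality, as did 42 of the 68 kept chaperone genes (61.8%) and 39.4% of all kept genes.

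The 3 members past 2-fold belong to the cytosolic set, and each has relatives that differed less. Dnajb4, a J-domain protein of the same subfamily as Dnajb1, read 6.99 in co-cultured and 5.60 in mono-cultured NSCs, a difference of 1.39 or 2.63-fold higher. Its relatives Dnajb1 and Dnajb5 differed by 0.17 and -0.30, with both Dnajb5 values below 6.64. Hspa4l, an exchange factor of the Hsp110 type, had 5.44 in co-cultured NSCs, against 6.82 in mono-cultured NSCs, a difference of -1.37 or 2.59-fold lower. Its paralog Hspa4 had 7.92 in co-cultured and 7.77 in mono-cultured NSCs, a difference of 0.16, so that within this subfamily 1 gene was past 2-fold and the others, Hspa4 and Hsph1, were near 0. Hspb1, the small heat shock protein Hsp27, had 5.35 in co-cultured NSCs, against 6.35 in mono-cultured NSCs, a difference of -1.01 or 2.01-fold lower. Both values of Hspb1 lay below 6.64, and after quantile normalization or a loess fit its difference was -0.95 or -0.94, short of 2-fold. For Dnajb4 and Hspa4l the lower of both values was below 6.64, so background signal bears on how large these differences appear.

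Among the other small heat shock proteins, Hspb6 had 6.74 in co-cultured and 6.53 in mono-cultured NSCs, and Hspb8, which works with Bag3, differed by 0.0094. Both Hspb8 values lay below 6.64, so they do not show that this gene was level. Hspb2, Hspb3, Hspb7 and Hspb9 did not reach 4.97 on either array. Of the Bag family, Bag1, an exchange factor that also binds Bcl-2, had 6.45 in co-cultured NSCs, against 7.04 in mono-cultured NSCs, a difference of -0.59, while Bag4, Bag5 and Bag6 differed by -0.29, -0.22 and 0.097. Bag2, at 0.50, was below 4.97 on both arrays. The 5 kept Bag genes thus lay on both sides of 0, with Bag3 highest and Bag1 lowest in difference. Of the remaining cytosolic J-domain genes that were kept, Dnaja4 differed by -0.39 and Dnaja2, Dnajb2, Dnajb6, Dnajc2, Dnajc7, Dnajc12, Dnajc17 and Dnajc21 by -0.15 to 0.13. Only Dnaja2 and Dnajc7 among them read above 6.64, so the small differences of the others do not show that those were level.

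The cytosolic chaperonin TRiC, which folds actin and tubulin, was even across its subunits. Its ring is built from the products of Tcp1 and of the Cct genes. Tcp1 read 7.99 in co-cultured and 7.82 in mono-cultured NSCs, a difference of 0.17. The other 7 kept subunit genes, Cct2, Cct3, Cct4, Cct5, Cct6a, Cct7 and Cct8, differed by -0.20 (Cct7) to 0.021 (Cct5). Cct5 read below 6.64 on both arrays, so its values do not show that it was level. The median over the 8 kept genes was -0.043 (0.015 after a loess fit, so its sign depends on the scaling), and Cct6b and Cct8l2, forms that were dim on both arrays, differed by 0.049 and 0.13. All 8 kept genes lay between -0.20 and 0.17.

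**Figure D2:**
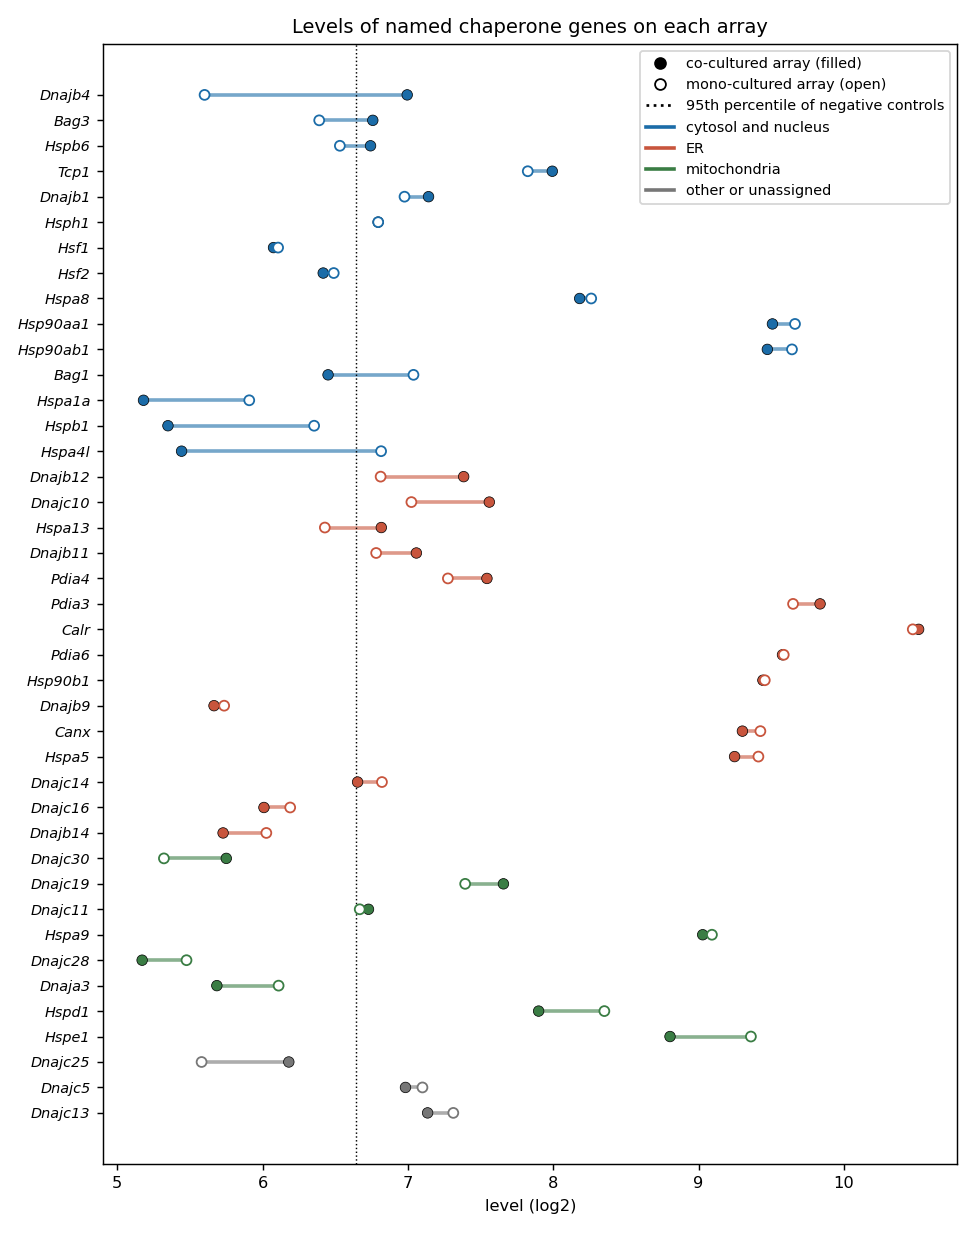
Levels (log2) of named chaperone genes on the co-cultured array (filled points) and the mono-cultured array (open points), in order of compartment and, within it, of difference, with 1 array per culture. The dotted line is the 95th percentile of the negative controls at 6.64; most pairs of points lie close together, and Dnajb4, Hspa4l and Hspb1 are the widest pairs.

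All 18 ER chaperone genes were kept and 0 were past 2-fold in either direction, beside 10.6% of all kept genes. In a set of 18, a count of 0 is not far from that share. The differences of the ER genes had a median of -0.0042 (0.084 after quantile normalization) and ran from -0.30 to 0.57. The general folding machinery of the ER was level. Hspa5, the ER Hsp70 known as BiP and the usual readout of the unfolded protein response, had 9.25 in co-cultured NSCs, against 9.41 in mono-cultured NSCs. Hsp90b1, the ER Hsp90 known as Grp94, had 9.44 in co-cultured and 9.46 in mono-cultured NSCs. Dnajb9, a J-domain partner of BiP that the response induces strongly, had 5.66 in co-cultured NSCs, against 5.73 in mono-cultured NSCs. Both Dnajb9 values lie below 6.64, so they do not show that this gene was level. The lectin chaperones calreticulin and calnexin, which hold glycoproteins during folding, were as close, with Calr at 10.52 in co-cultured and 10.47 in mono-cultured NSCs and Canx at 9.30 in co-cultured NSCs, against 9.43 in mono-cultured NSCs.

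Of the 3 disulfide isomerase members, 2 read slightly higher in co-culture. Pdia4 read 7.54 in co-cultured and 7.27 in mono-cultured NSCs, Pdia3, the partner of the lectin chaperones, had 9.84 in co-cultured NSCs, against 9.65 in mono-cultured NSCs, and Pdia6 differed by -0.0084. P4hb, the classical isomerase, which is not a member, had 9.49 in co-cultured NSCs, against 9.66 in mono-cultured NSCs. Dnajc10, a J-domain disulfide reductase, had 7.56 in co-cultured and 7.02 in mono-cultured NSCs, a difference of 0.54. Dnajb12, an ER membrane J-domain protein that recruits cytosolic Hsp70 to degradation, had 7.38 in co-cultured NSCs, against 6.81 in mono-cultured NSCs, a difference of 0.57. Both were 1.5-fold or less. Hspa13 (6.82 in co-cultured and 6.43 in mono-cultured NSCs) and Dnajb11, a soluble partner of BiP (7.06 in co-cultured NSCs, against 6.78 in mono-cultured NSCs), differed by 0.39 and 0.28. At the lower end Dnajb14, the close relative of Dnajb12, had 5.73 in co-cultured and 6.02 in mono-cultured NSCs, a difference of -0.30, and Dnajc14 and Dnajc16 differed by -0.17 and -0.18. The membrane pair Dnajb12 and Dnajb14 thus lay at opposite ends of the ER range, though both Dnajb14 values lay below 6.64.

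Promoter sequence was read from RefSeq (GRCr8, 250 bases before to 50 after each gene start), which held 76 of the 93 genes. The ER stress element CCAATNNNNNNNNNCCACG, searched on both strands, was present in the promoters of 5 of the 76 (6.58%), Hspa5, Hsp90b1, Calr, Canx and Dnajc3, and in 0.0657% of all 33469 promoters. These windows are shown because they hold a match to the element, which is in capitals on whichever strand it was found. They lie at chr3:38452943-38453021, plus strand (Hspa5), chr7:23012317-23012395, minus strand (Hsp90b1, the nearer of 2 matches), chr19:40213117-40213183, plus strand (Calr), chr10:35158039-35158107, minus strand (Canx) and chr15:102432504-102432582, plus strand (Dnajc3).
Hspa5: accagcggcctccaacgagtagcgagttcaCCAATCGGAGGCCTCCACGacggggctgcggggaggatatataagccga
Hsp90b1: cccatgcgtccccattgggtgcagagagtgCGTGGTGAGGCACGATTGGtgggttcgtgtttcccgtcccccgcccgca
Calr: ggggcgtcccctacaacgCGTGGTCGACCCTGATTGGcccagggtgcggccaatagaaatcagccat
Canx: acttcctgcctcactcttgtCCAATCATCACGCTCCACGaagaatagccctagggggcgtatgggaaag
Dnajc3: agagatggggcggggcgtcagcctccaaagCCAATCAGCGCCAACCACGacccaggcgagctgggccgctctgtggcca

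The 5 genes with the element differed by -0.16 to 0.11, with a median of -0.013. Dnajc3, which encodes a co-chaperone that restrains the kinase Perk, had the highest difference of the 5, at 7.16 in co-cultured NSCs, against 7.05 in mono-cultured NSCs. The 53 kept genes without the element had a median of -0.064. A match of letters does not show that a factor binds there.

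Of the 10 mitochondrial members 9 were kept, with a median difference of -0.29. Of the 9, 0 were past 2-fold, beside 10.6% of all kept genes, and in so small a set a count of 0 is not far from that share. The median is the value of Dnajc4. Dnajc4, Dnaja3, Dnajc28 and Dnajc30 all read below 6.64 on both arrays, in the range of the negative controls. The chaperonin pair was lower in co-culture. Hspd1, the mitochondrial Hsp60 that forms the folding chamber, read 7.90 in co-cultured and 8.35 in mono-cultured NSCs, a difference of -0.45 or 1.37-fold lower. Hspe1, the Hsp10 lid of that chamber, had 8.80 in co-cultured NSCs, against 9.36 in mono-cultured NSCs, a difference of -0.56 or 1.47-fold lower. All 4 values lay above 6.64, and both differences lay inside the range of the positive controls. Hspa9, the mitochondrial Hsp70, had 9.03 in co-cultured and 9.09 in mono-cultured NSCs. Its J-domain partner Dnaja3 had 5.68 in co-cultured NSCs, against 6.11 in mono-cultured NSCs, a difference of -0.43, and Dnajc4 and Dnajc28 differed by -0.29 and -0.31.

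The mitochondrial members did not all lie on 1 side. Dnajc19, a J-domain protein of the import motor, had 7.66 in co-cultured and 7.39 in mono-cultured NSCs, and Dnajc30 had 5.75 in co-cultured NSCs, against 5.32 in mono-cultured NSCs, differences of 0.26 and 0.43. Dnajc11, which acts in cristae structure, differed by 0.060. Among the 5 members at or past the 75th percentile of gene levels (Hspa9, Hspd1, Hspe1, Dnajc19 and Dnajc11) the median was -0.064, and the unfiltered median over all 10 was -0.18. The medians of mitochondrial (-0.29), cytosolic (-0.043) and ER members (-0.0042) depend on the filter, since the mitochondrial and ER medians were -0.18 and -0.0042 with no filter and -0.064 and 0.11 at the 75th percentile. With 1 array per culture the difference between compartments was not tested.

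**Figure D3:**
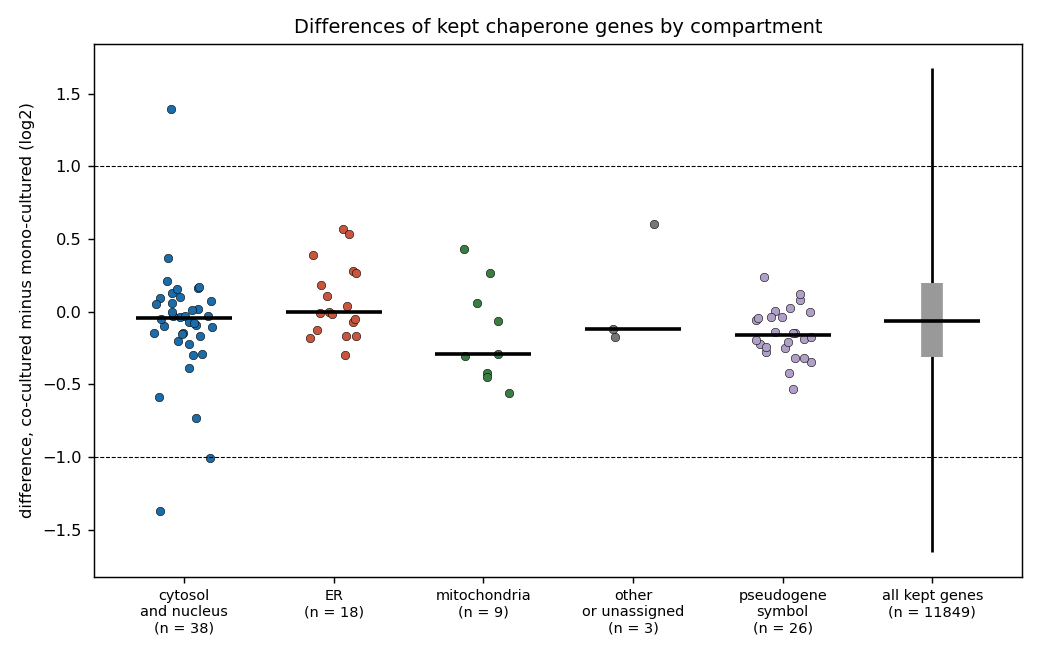
Differences (co-cultured minus mono-cultured, log2) of the kept chaperone genes by compartment, with the pseudogene symbols apart; each point is a gene and each black line a median. The last column gives all 11849 kept genes, with the quartiles as a grey bar and the central 95% as a thin line from -1.66 to 1.67, wider than the spread of any compartment.

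Hspd1 and Hspe1 stand head to head on chromosome 9, with 289 bases between their starts, so that their promoter windows share 211 bases. Both windows are shown because this pair had the lowest differences among the mitochondrial members. They are chr9:64083988-64084287 on the minus strand (Hspd1) and chr9:64084077-64084376 on the plus strand (Hspe1). Capitals mark overlapping matches to the heat shock element GAANNTTCNNGAA (TTCNNGAANNTTC on the other strand), the binding motif of heat shock factors.
Hspd1: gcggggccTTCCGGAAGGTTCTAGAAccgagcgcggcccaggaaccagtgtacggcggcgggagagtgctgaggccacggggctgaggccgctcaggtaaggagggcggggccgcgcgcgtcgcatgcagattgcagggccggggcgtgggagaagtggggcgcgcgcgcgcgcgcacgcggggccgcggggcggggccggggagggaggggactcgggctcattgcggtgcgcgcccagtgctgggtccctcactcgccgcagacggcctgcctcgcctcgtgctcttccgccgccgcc
Hspe1: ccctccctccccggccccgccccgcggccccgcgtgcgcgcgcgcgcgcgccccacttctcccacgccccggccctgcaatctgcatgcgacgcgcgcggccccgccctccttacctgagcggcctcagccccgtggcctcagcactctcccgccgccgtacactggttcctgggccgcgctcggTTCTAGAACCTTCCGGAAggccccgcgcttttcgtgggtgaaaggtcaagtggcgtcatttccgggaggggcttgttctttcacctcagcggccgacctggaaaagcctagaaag

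The capitals are the same 18 bases read on opposite strands, with their first base at position -65 relative to the Hspe1 start and -242 relative to the Hspd1 start. The element was present in the promoters of 5 of the 76 genes (6.58%), namely Hspd1, Hspe1, Hspa8, Hsph1 and Cct4, and in 0.798% of all promoters. The other matches are shown with up to 30 bases on each side, together with that of Serpinh1, a collagen chaperone outside the member list that is also known as a heat shock gene (Hsp47). They lie at chr8:50080429-50080501, plus strand (Hspa8, the nearer of 2 matches), chr12:10427302-10427374, plus strand (Hsph1), chr14:101193052-101193106, plus strand (Cct4) and chr1:163062969-163063041, minus strand (Serpinh1).
Hspa8: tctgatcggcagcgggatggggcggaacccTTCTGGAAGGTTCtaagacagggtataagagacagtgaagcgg
Hsph1: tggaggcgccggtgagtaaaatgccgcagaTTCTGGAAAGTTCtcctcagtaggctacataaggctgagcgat
Cct4: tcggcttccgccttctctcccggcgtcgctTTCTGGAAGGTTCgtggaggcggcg
Serpinh1: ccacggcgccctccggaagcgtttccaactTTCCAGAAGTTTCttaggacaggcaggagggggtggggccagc

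The 5 members with a heat shock element differed by -0.56 to 0.00, with a median of -0.099, and the 53 kept members without it had a median of -0.047. Hspd1 and Hspe1 count the same site. The 53 include Hspb1, Bag3 and Dnajb1, whose promoters hold a shorter match of 2 units (GAANNTTC or TTCNNGAA). That shorter match was present in 20 of the 76 genes (26.3%) and in 15.9% of all promoters. The 16 kept members with it had a median of -0.058, and the 42 without it -0.055. Serpinh1, with the same kind of element at position -35 from its start, read 9.26 in co-cultured and 7.79 in mono-cultured NSCs, a difference of 1.47. Serpinh1 is shown as a single gene with a large difference in its own list, and nothing about the element is drawn from it.

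Of the 9 members on other membranes or unassigned, 3 were kept. Dnajc5, the cysteine string protein of synaptic vesicles, had 6.98 in co-cultured NSCs, against 7.10 in mono-cultured NSCs, and Dnajc13, an endosomal J-domain protein, had 7.14 in co-cultured and 7.31 in mono-cultured NSCs. Dnajc25 had 6.18 in co-cultured NSCs, against 5.58 in mono-cultured NSCs, a difference of 0.60 with both values below 6.64. The 25 members below 4.97 on both arrays differed by -0.47 to 0.75, and 0 were past 2-fold. Of all 22093 named genes 1362 were past 2-fold, and 1254 of these were among the 11849 kept genes. Few genes below 4.97 were thus past 2-fold, and a count of 0 says little about these members. Among them the muscle small heat shock protein Hspb7 and the atypical Hsp70 Hspa12a had the highest differences, 0.75 and 0.62, on levels of 4.44 and 4.83 in co-culture and 3.69 and 4.21 in mono-culture.

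The pseudogene symbols gave a further reading of bright cytosolic transcripts, since their probes can bind the RNA of the parent gene. Of 38 such symbols 26 were kept and 0 were past 2-fold, beside 10.6% of all kept genes. As deposited, 20 of 26 were lower in co-culture (17 after a loess fit), beside 55.8% of all kept genes as deposited. The median was -0.16 and the range -0.53 to 0.24. The 9 kept copies named after Hspa8 differed by -0.32 to -0.14, beside -0.16 for the bright Hspa8 probe set. The 2 kept copies named after Hspd1 differed by -0.53 and -0.21, on the same side of 0 as Hspd1. Signals of parent and copy cannot be told apart on this array, so these values are not independent of the parents' values.

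Other genes of the folding pathways were compared from 6 lists. Of all kept genes, 10.6% were past 2-fold and 55.8% were lower in co-culture. In lists this small, a count of 0 past 2-fold is not far from 10.6%. The 18 kept co-chaperones of the cytosol had 0 past 2-fold and a median of -0.11, with 15 lower in co-culture (12 after quantile normalization or a loess fit). Fkbp5, a glucocorticoid-induced partner of Hsp90, had 6.35 in co-cultured and 5.70 in mono-cultured NSCs, Hikeshi, which imports Hsp70 into the nucleus, had 6.18 in co-cultured NSCs, against 6.75 in mono-cultured NSCs, and Ppid, a partner of Hsp90, differed by -0.48. The 4 prefoldin subunits, which pass chains to TRiC, had a median of -0.35, with Pfdn2, Pfdn6 and Pfdn1 at -0.44, -0.43 and -0.27 and Pfdn4 at 0.21. Pfdn2 and Pfdn4 read below 6.64 on both arrays. Of the heat shock factor list only Hsbp1, a small protein that binds heat shock factor 1, was kept, at 6.89 in co-cultured and 7.06 in mono-cultured NSCs. The 13 genes for other mitochondrial folding and quality control had 0 past 2-fold, 10 lower in co-culture and a median of -0.27. Among them the protease subunit Afg3l2, the iron-sulfur co-chaperone Hscb and the protease subunit Clpp were at -0.56, -0.44 and -0.40. Afg3l2 and Hscb read below 6.64 on both arrays.

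The 23 kept genes for other ER folding and the unfolded protein response had 0 past 2-fold and a median of -0.094. Txndc5, a disulfide isomerase, had 8.17 in co-cultured NSCs, against 7.47 in mono-cultured NSCs. Derl3, a factor of ER-associated degradation, differed by -0.55 with both values below 6.64, and the oxidase Ero1a by -0.47. Collagen chaperones and modifying enzymes differed from this. Of 12 kept genes 4 were past 2-fold upward in co-culture, against 5.04% of all kept genes. In the other direction 0 were past 2-fold, and the median was 0.72. P4ha3, a subunit of collagen prolyl 4-hydroxylase, had 8.59 in co-cultured and 6.04 in mono-cultured NSCs, a difference of 2.55 or 5.88-fold higher. Plod2, a lysyl hydroxylase of collagen, had 7.92 in co-cultured NSCs, against 6.30 in mono-cultured NSCs, a difference of 1.62. Fkbp10, a procollagen chaperone, differed by 1.31 and Serpinh1 by 1.47. P4ha1 and Colgalt1 were the 2 genes of the list that were lower in co-culture, by -0.21 and -0.45. These differences go with those of the collagen-making mesenchymal markers, of which Col1a1 had 11.23 in co-cultured and 6.48 in mono-cultured NSCs, and the part of mesenchymal cells in them was not tested.

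**Figure D4:**
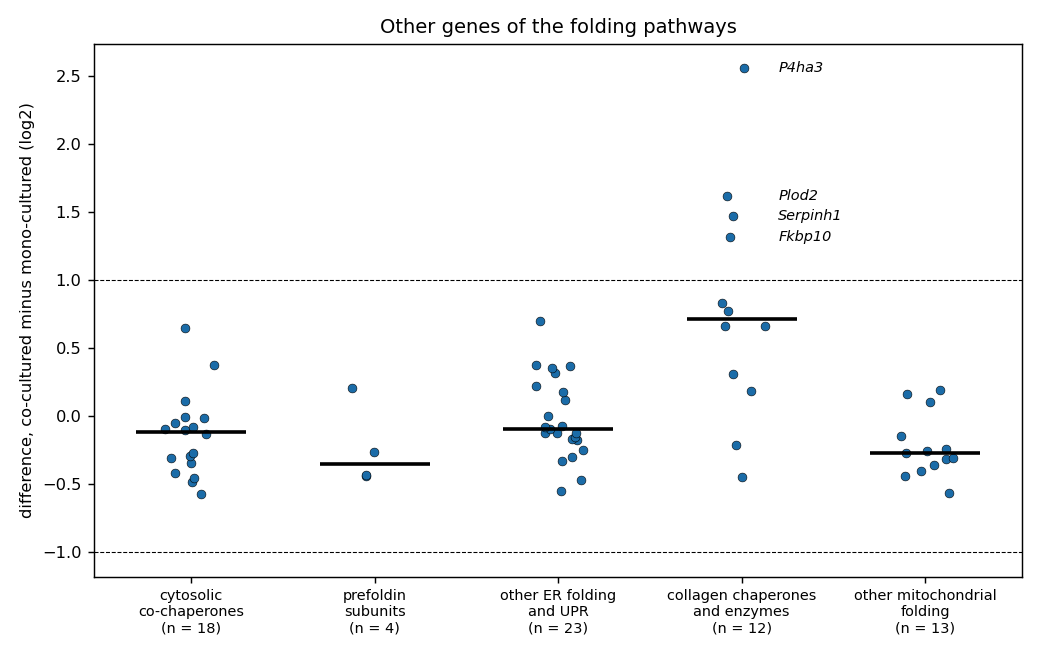
Differences (co-cultured minus mono-cultured, log2) of kept genes in 5 lists of other folding genes; each point is a gene, each black line a median, and dashed lines mark 2-fold. The 4 named collagen genes, P4ha3, Plod2, Serpinh1 and Fkbp10, are the points past 2-fold, while the other lists stay inside it.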

How the data were processed

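The authors deposited log2 levels of 2 arrays, 1 per culture, for 70580 probe sets; the submitters' processing notes name RMA, and no source used here gives its software, version or annotation release. RMA's quantile step hides a change shared by most genes. The platform's annotation gave 1 symbol to 23446 probe sets; 505 with several, which include those of Dnaja1 and Dnajc8, were left out. Probe sets of a gene were averaged. By Entrez ID 130 of 131 members matched RefSeq (GRCr8), and no symbol differed.

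A gene was kept if its higher level reached 4.97, the median of all gene levels. Scanner files were not used here, and the number of arrays limits the precision. Genes at or beyond 2-fold were counted and no p-value was computed. The counting was tested on simulated data.

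Members and lists were chosen with earlier results of these data known. Named were members past 2-fold, the 4 highest and 4 lowest kept differences per compartment and a fixed core set, and up to 3 genes per other list. Relatives in a family, single markers, all 5 genes of a motif, Fkbp10, P4ha1, Colgalt1 and dim or remaining members were named after their values were seen. Alternatives used limma 3.58.1 in R 4.3.3; other steps used Python 3.11.15, numpy 2.4.6, pandas 2.3.3 and matplotlib 3.10.9.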

Additional observations from a re-analysis of the deposited data

How the results depend on the processing

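The count of chaperone genes 2-fold or more higher in co-culture was 1 and the lower count was 2 under no filter, the mean, both-array and 75th percentile filters, each rule for several probe sets and dim levels raised to 4.97. The share of all genes past 2-fold changed with these settings, so equal chaperone counts do not mean an equal contrast. It was 6.16% with no filter (93 chaperone genes counted), 9.38% with the mean filter (67) and 6.01% with the both-array filter (67). At the 75th percentile it was 13.6% (48), and with dim levels raised 8.34% (68). Both rules for several probe sets gave 10.7%. Median centring changed no value, since the median of all named genes was already 0, and is no check. After quantile normalization and after the loess fit the lower count was 1, since Hspb1 then lay at -0.95 and -0.94. Of all kept genes, 10.6% were past 2-fold after each. A limit of 1.5-fold gave 2 higher and 4 lower, beside 20.6% of all kept genes. A limit of 4-fold gave 0 higher and 0 lower, beside 3.7% of all kept genes, as a stricter limit must give fewer. A mean level of at least 6.64, chosen after seeing the data, gave 0 and 0 of 38, beside 9.05% of 4156 genes. The median difference ranged from -0.060 to 0.0072 in the cytosol (0.015 after loess over the genes kept as deposited), from -0.0042 to 0.11 in the ER and from -0.29 to -0.064 in mitochondria. Means in place of medians were -0.088, 0.072 and -0.15. The median of all kept genes was -0.0067 after quantile normalization and -0.0053 after loess, against -0.061 as deposited. Including pseudogene symbols, chosen after seeing the data, left both counts at 1 and 2. It put the cytosol median at -0.076 over 62 genes, outside the range given above. No paired analysis was possible because each group is 1 array. Dim levels limit Hspb1, Hspa1a, the 25 members below 4.97 and every kept member that read below 6.64. Of the 68 kept chaperone genes, 41 reached 6.64 on the co-cultured array and 39 on the mono-cultured array.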

Other observations

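Exact ties occurred. Of the 11849 kept genes 222 had the same deposited level on both arrays, and among the kept chaperone genes 2 did, Hsph1 at 6.79 and Dnajc1, an ER J-domain gene, at 5.71. How the ties arose was not tested.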
